A study of Schizosaccharomyces pombe with 4 samples.

Results

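A single 750-nt stretch of the 25S ribosomal RNA was examined, in which libraries purified without any tagged protein hold far more of their reads than libraries purified through tagged Seb1. It comprises the minus-strand records of chromosome XII that name RDN25, the gene of 25S rRNA, and whose midpoint lies at 452500 to 453249, or at 461637 to 462386 in the second of 2 rDNA copies. Of 261749 records in the deposited files, 35842 met this rule: 1662 in untagged control 1, 19225 in untagged control 2, 6828 in Seb1-HTP 1 and 8127 in Seb1-HTP 2. The members were chosen by the measured read shares themselves, on a contrast in which control reads pile up there, so these shares are given as a description, without a test.

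The study applied CRAC, in which RNA is cross-linked to protein by UV in living cells, a tagged protein is pulled down under harsh washes and its attached RNA is sequenced as cDNA, to the fission yeast Schizosaccharomyces pombe. All 4 libraries came from h+ cells with the alleles ade6-M216 and leu1-32 together with ura4-delta_18 and his3delta_1, grown exponentially in YES, a rich medium, at 30 °C and irradiated for 3 min, and the 2 Seb1-HTP libraries also carried Seb1-HTP::KAN. HTP is a tag for a pair of purification steps, and Seb1 is an RNA-binding protein of 3′ end processing related to Nrd1. The 2 untagged libraries of the parental strain show what the purification recovers with no tag at all. The files place these S. pombe reads on the chromosomes of the budding yeast Saccharomyces cerevisiae, so each position and gene name below is that of S. cerevisiae, and which release of that genome was used is not stated.

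The 25S rRNA is the main RNA of the large ribosomal subunit. It folds into domains that form the peptidyl transferase centre and many of the contacts with the small subunit, and it is cut, with 18S and 5.8S rRNA, from a 35S precursor encoded in tandem rDNA repeats. Ribosomal RNA is the most abundant RNA of a growing yeast cell and a common background in purifications of RNA-bound proteins. Much of 25S is conserved between yeasts, while expansion segments and some loops differ in sequence and length.

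Records naming RDN25-1 ran from 451780 to 455207, so on this minus-strand gene the stretch began 720 nt from the low-coordinate, 3′ side of the records and ended 1958 nt from their 5′ side. It is exonic sequence of a mature rRNA and also lies in RDN37-1 and RDN37-2, the 35S precursor features. Part of it in the first copy overlaps the open reading frame YLR154W-A, named beside RDN25-1 by 13.6% and 15.1% of the stretch's control reads and by 22.5% and 12.5% of its Seb1-HTP reads. No sequence of the stretch is printed, because the S. cerevisiae genome was not used here.

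The libraries differed in depth: reads naming a feature numbered 4579 and 45339 in controls 1 and 2 and 268030 and 231656 in Seb1-HTP 1 and 2, from 35034, 202528, 3452998 and 3946246 raw reads. The p-values below measure only the spread between these libraries, which the series calls biological replicates. With 2 libraries against 2, an exact permutation test cannot give a p below 0.333. Intervals are 95% Wilson intervals and cover counting error only.

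In control 1, 3153 of its 4579 named reads lay in the stretch, which is 68.9% (67.5 to 70.2). Control 2 held 37977 reads there, 83.8% (83.4 to 84.1) of its named reads. Seb1-HTP 1 held 12649 reads, 4.72% (4.64 to 4.80). Both controls thus stood far above this Seb1-HTP library. Seb1-HTP 2 held 15296 reads, 6.60% (6.50 to 6.70). The mean share was 76.3% ± 10.5 (SD, n = 2) in the controls against 5.66% ± 1.33 with Seb1-HTP, a ratio of 13.5. Most control reads that named a feature therefore lay in this one stretch.

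Control 2, with fewer raw reads than either Seb1-HTP library, held more reads of the stretch than either of them. Of all raw reads, 8.9998% in control 1, 18.8% in control 2, 0.366% in Seb1-HTP 1 and 0.388% in Seb1-HTP 2 were placed in the stretch. These shares lay close together in the Seb1-HTP libraries and further apart in the controls, and the ratio of group means was 36.8. Among 25S reads, the stretch made up 85.5% and 94.1% in the controls against 11.7% and 17.0% with Seb1-HTP. Distinct fragments take each start and end once, with the 2 rDNA copies apart, so a fragment placed in both copies is counted in each. The stretch held 43.8% and 50.4% of named fragments in the controls against 5.47% and 5.11% with Seb1-HTP. The ratio of means was then 8.91, smaller than in reads but with both controls again above both Seb1-HTP libraries.

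**Figure D1:**
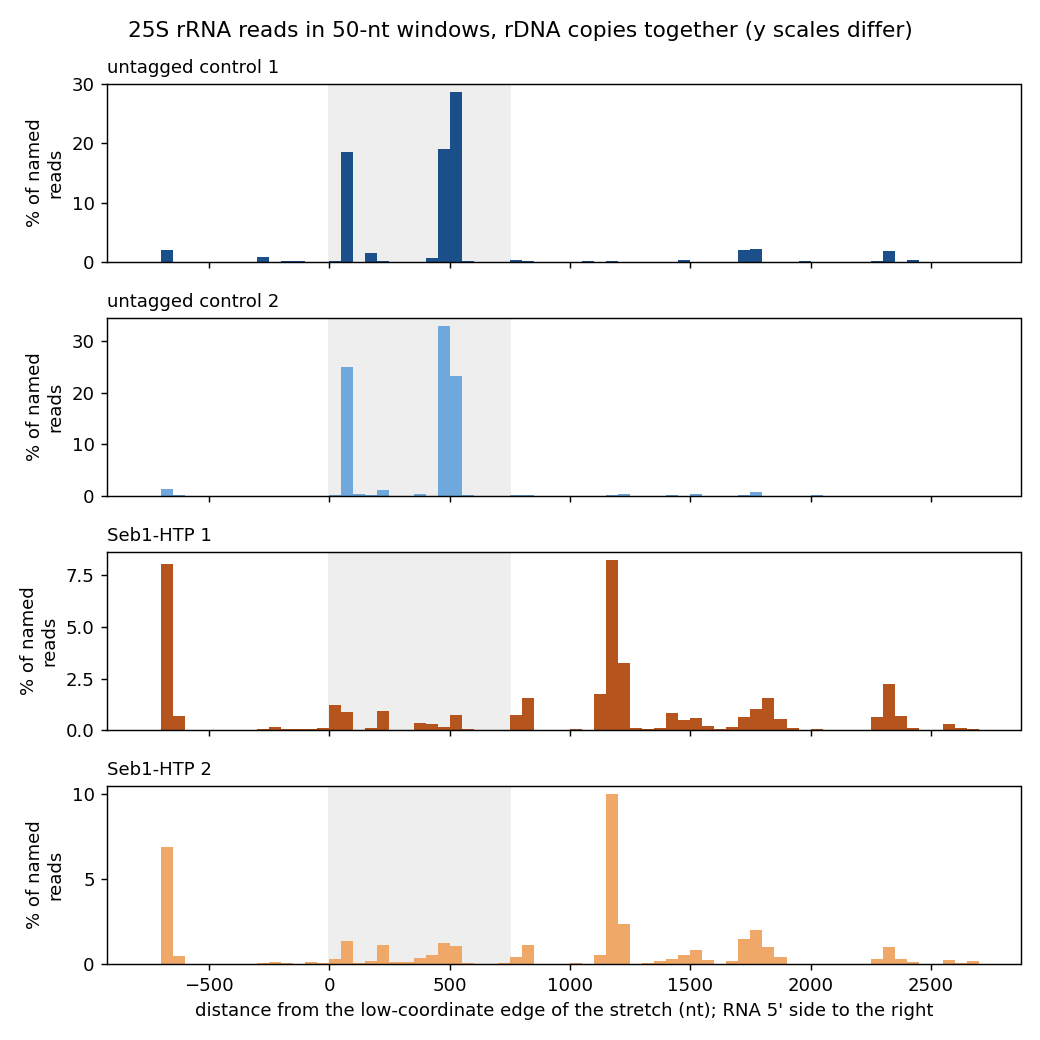
Share of named reads (y axis, percent, with its own scale in each panel) in 50-nt windows along 25S rRNA (x axis, nt from the low-coordinate edge of the stretch, which is shaded), 1 panel per library with both rDNA copies brought together. In the controls a pair of blocks inside the shaded stretch, reaching 28.6% in control 1 and 32.9% in control 2, stands over an almost empty profile, while the highest Seb1-HTP bars lie outside it.

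Within the stretch, control reads were not spread out but sat in 2 blocks. Windows of 50 nt with at least 10% of the stretch's reads in both controls formed a first pile-up at 452550 to 452599 and a second at 452950 to 453049 (461687 to 461736 and 462087 to 462186 in the second copy). The pile-ups were defined after the profile was seen. Together they cover 150 of the 750 nt and held 96.1% and 96.9% of the stretch's control reads. With Seb1-HTP they held 36.9% and 55.0% of its reads.

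The first pile-up held 845 and 11309 control reads, 18.5% and 24.9% of named reads. The Seb1-HTP libraries had 2339 and 3092 reads there, 0.873% and 1.33% of named reads. The control mean was 19.7-fold higher. The second pile-up held 2184 and 25486 control reads, 47.7% and 56.2% of named reads. It held 2332 and 5320 Seb1-HTP reads, 0.870% and 2.30% of named reads, and the control mean was 32.8-fold higher. In control 2, 337 and 720 distinct intervals, copies together, made up the pile-ups, at 33.6 and 35.4 reads per interval. The reads were unevenly spread over them. In the first pile-up, 452540 to 452589 and 452556 to 452597 held 3288 and 1882 of the 11309 reads. Control 1 had 93 and 158 distinct intervals there, Seb1-HTP 1 had 148 and 125, and Seb1-HTP 2 had 229 and 442.

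The remaining 600 nt of the stretch did not share this difference in named reads. They held 2.71% and 2.61% of named reads in the controls against 2.98% and 2.97% with Seb1-HTP. The pile-ups enter these totals, and relative to named reads outside the pile-ups the same 600 nt held 8.00% and 13.8% in the controls against 3.03% and 3.08% with Seb1-HTP. Which total is used thus decides whether controls stand below or above. In distinct fragments the 600 nt held 4.55% and 5.39% of named fragments in the controls against 2.94% and 2.58% with Seb1-HTP.

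Window by window, 13 of the stretch's 15 windows had at least 20 reads over the 4 libraries. In 4 of these 13 both controls were above both Seb1-HTP libraries in share of named reads, against 8.91% of the 101 windows of the 35S rDNA with that many reads. In 2 both controls were below, against 59.4% of the 101, and in 7 the groups overlapped. The choice of the stretch used this contrast, and shares of one total compete, so nothing is read from these counts. The windows with both controls above were the 3 of the pile-ups and the window at 453050. The latter held 0.153% and 0.121% of named reads in the controls against 0.0642% and 0.0751% with Seb1-HTP. The windows with both controls below were those at 452500 and 452800. The first of them held 25.7% of the stretch's reads in Seb1-HTP 1, 4.56% in Seb1-HTP 2, and 0.254% and 0.258% in the controls.

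The edges of the stretch are thinly covered in the controls. In the 25 nt just inside its low edge the midpoints of 2 and 4 control reads and of 47 and 289 Seb1-HTP reads were found, and in the 25 nt just outside 0 and 0 against 158 and 165. At the high edge the counts were 0 and 7 against 35 and 143 inside, and 0 and 41 against 727 and 254 outside. The control pile-ups therefore end well within the borders that the rule draws.

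**Figure D2:**
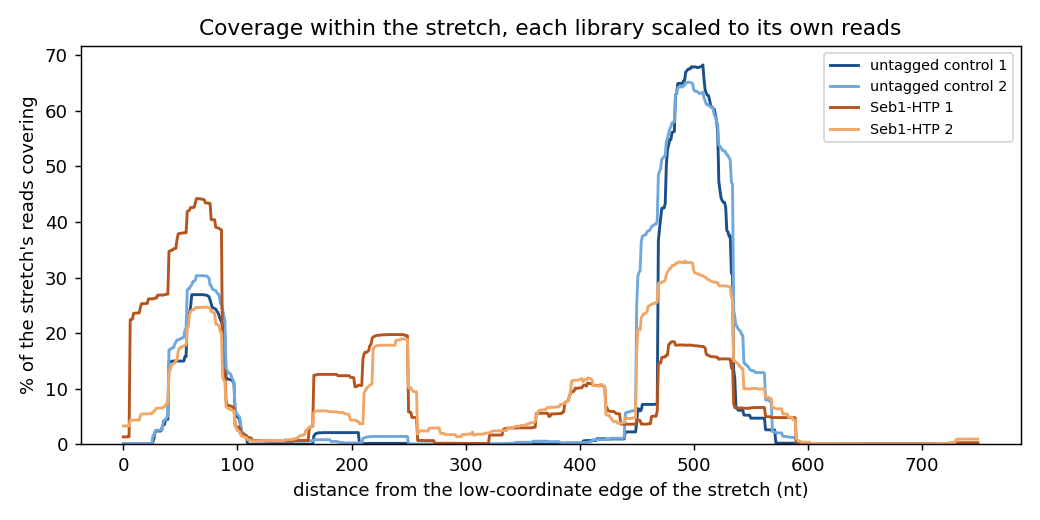
Percent of the stretch's reads that cover each position (y axis) against the distance in nt from its low-coordinate edge (x axis), with 1 line per library scaled to its own reads. Both controls show the same pair of peaks with little between them, and both Seb1-HTP libraries show the same peaks at other heights plus further blocks between them.

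The pile-ups are built from many overlapping fragments, and several recur in all libraries. Over the 4 libraries 2484 different intervals were seen, copies together, of which 63 were in all 4. These 63 held 59.1% and 30.8% of the stretch's control reads against 22.6% and 13.5% of its Seb1-HTP reads. The 50-nt interval 452540 to 452589 had the highest mean share in the controls, with 242 and 3288 reads, 7.68% and 8.66% of the stretch. It was also among the 5 leading intervals with Seb1-HTP, with 667 and 639 reads, 5.27% and 4.18%. This fragment of the first pile-up is thus common to both kinds of library. The 42-nt interval 452556 to 452597, which overlaps it, held 5.65% and 4.96% in the controls against 2.55% and 2.20% with Seb1-HTP.

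In the second pile-up the leading intervals separated the libraries differently. The 53-nt interval 452969 to 453021 held 8.56% and 2.43% of the stretch's reads in the controls against 0.277% and 0.111% with Seb1-HTP. The 66-nt interval 452969 to 453034 held 7.93% and 1.95% in the controls against 4.78% and 1.98% with Seb1-HTP, so its groups overlapped. The 85-nt interval 452950 to 453034 had 0 reads in control 1 and 2818 in control 2 (7.42%), and 2 in Seb1-HTP 1 (0.0158%) and 754 in Seb1-HTP 2 (4.93%). It marked the second library of each group.

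The ends of reads show the same pattern. Reads ending at 452950, on the RNA's 3′ side, were 18.7% of the stretch in control 2 and 13.4% in Seb1-HTP 2, but 1.68% in control 1 and 1.76% in Seb1-HTP 1. Reads ending at 452969 were 29.4% in control 1, 8.31% in control 2, 8.59% in Seb1-HTP 1 and 3.33% in Seb1-HTP 2. In each group the first library was the higher one. On the 5′ side, 453034 was the commonest control end, at 17.0% and 22.7%, and reached 7.63% and 11.6% with Seb1-HTP. Other ends of the same pile-up separated the groups instead. On the 3′ side, reads ending at 452984 were 6.47% and 4.71% in the controls against 0.925% and 0.536% with Seb1-HTP. On the 5′ side, reads ending at 453021 were 8.91% and 3.63% against 0.285% and 0.660%. The ends of the second pile-up thus showed no single pattern over the libraries.

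Of the 5 leading intervals with Seb1-HTP, 452540 to 452589 and 452969 to 453034 were also among the 5 of the controls, and the other 3 were rare or missing there. The 81-nt interval 452506 to 452586 had 2648 reads in Seb1-HTP 1 (20.9% of the stretch), 107 in Seb1-HTP 2 (0.700%) and 0 in both controls. The 39-nt interval 452719 to 452757 had 34 and 973 reads with Seb1-HTP, or 0.269% and 6.36%, again with 0 in the controls. The 83-nt interval 452667 to 452749 had 958 and 281 reads, 7.57% and 1.84%, against 0 and 86. The 5 leading intervals of each library held 33.9% and 26.1% of the stretch's control reads against 43.3% and 23.2% of its Seb1-HTP reads.

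Each distinct fragment of the stretch stood for 7.44 and 20.3 reads in the controls and for 14.7 and 7.89 with Seb1-HTP. The groups overlapped (exact permutation p = 1). Reads per fragment thus differed more between libraries of one group than between groups. This measure was not adjusted for depth, and the stretch held 3153 and 37977 control reads and 12649 and 15296 Seb1-HTP reads.

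Read length overlapped as well. Reads of the stretch averaged 54.4 and 67.6 nt in the controls and 65.4 and 63.6 nt with Seb1-HTP (61.0 ± 9.34 against 64.5 ± 1.30, SD, n = 2 each; exact permutation p = 1). Within the first pile-up the means were closer, at 46.7 and 47.1 nt in the controls and 46.1 and 45.1 nt with Seb1-HTP. Within the second they were 58.2 and 77.1 nt against 74.2 and 84.8 nt. The range over all member reads was 17 to 249 nt, and 25S reads outside the stretch averaged 60.8, 55.1, 60.3 and 60.2 nt in the same order of libraries.

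Reads were divided evenly between the 2 rDNA copies. The first copy took 50.5% and 49.7% of the stretch's reads in the controls against 50.2% and 49.9% with Seb1-HTP (exact permutation p = 1), and the interval of each library held 50%. Of intervals with at least 20 reads, the split could not be told from even, by the same Wilson interval, in 33 of 35, 255 of 270, 71 of 74 and 147 of 155. The copies are thus 1 measurement and are summed here, with second-copy positions moved by 9137 nt onto the first.

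Reads from S. pombe differ from the S. cerevisiae sequence at many positions, and the rule itself did not use these differences. Shares taken over the whole stretch still depend on how its reads divide between the control pile-ups, for which it was chosen, and the rest. Only 0.729% and 1.90% of the stretch's control reads, and 3.23% and 8.36% of its Seb1-HTP reads, carried no difference. Controls had 8.05 and 6.60 differences per 100 nt and Seb1-HTP libraries 6.71 and 5.47. The 25S rRNA outside the stretch had 6.09 and 6.48, and 6.73 and 6.23. A difference can be a base in which the species differ, an error or a mark that UV cross-linking left in the cDNA, which the files do not tell apart.

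Some differences were nearly constant. At 4 of the 181 positions covered by at least 100 reads in each library, 70% or more of covering reads carried a substitution in every library. At 452591 this share was 98.9% and 94.1% in the controls against 93.4% and 92.8% with Seb1-HTP, and at 452597 it was 99.4% and 94.1% against 93.9% and 91.9%. At 452544 it was 99.2% and 99.7% against 97.1% and 79.4%, and at 453020 it was 97.2% and 86.5% against 84.9% and 74.0%. All 4 lay in or beside the pile-ups, where coverage is sufficient. At 143 of the 181 positions the share stayed under 5% in each library.

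Deletions were more frequent in the stretch than in the rest of 25S in every library, and more frequent in both controls than in both Seb1-HTP libraries. Among the stretch's reads, 57.2% (55.4 to 58.9) in control 1 and 50.7% (50.2 to 51.2) in control 2 carried a deletion. In Seb1-HTP 1 and 2 these were 23.96% (23.2 to 24.7) and 26.8% (26.1 to 27.6). The means, 53.9% ± 4.59 and 25.4% ± 2.04 (SD, n = 2), lay further apart than the replicates of either group (exact permutation p = 0.333, the smallest possible). Outside the stretch, 21.5% and 12.9% of control 25S reads and 8.35% and 8.32% of Seb1-HTP 25S reads carried one. The control reads there numbered 534 and 2397, and single windows held many of their deletions. In control 1 the window at 454800 held 87 reads in 10 fragments, 80.5% with a deletion. In control 2 the window at 453700 held 159 reads in 11 fragments, 70.4% with one. The excess of the stretch over other 25S was 35.6 and 37.8 percentage points in the controls against 15.6 and 18.5 with Seb1-HTP. These groups did not overlap (exact permutation p = 0.333). Both measures depend on how the stretch's reads divide between the second pile-up and the rest. The stretch was chosen for its control pile-ups, so neither test is independent of that choice. In distinct fragments the mean share in the stretch was 38.4% in the controls against 21.5% with Seb1-HTP. The mean excess over other 25S was then 25.6 against 8.99 points. By that count the group means outside the stretch were nearly level.

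Nearly all control deletions fell in 4 adjacent positions of the second pile-up, 453009 to 453012, the only ones among the 181 with a deletion in 10% or more of covering reads in any library. Of control reads with a deletion, 96.2% and 92.2% had one in this cluster, against 36.0% and 61.9% with Seb1-HTP. At 453010, 85.9% and 74.6% of covering control reads against 49.1% and 54.0% of covering Seb1-HTP reads lacked the base. At 453011 the shares were 64.4% and 54.1% against 37.4% and 39.7%, and at 453012 they were 64.5% and 54.1% against 37.9% and 40.1%. At 453009 they were 21.6% and 20.7% against 14.8% and 15.2%. At each of the 4 positions both controls were above both Seb1-HTP libraries, as at 13 of the 181 positions in all. At 16 of the 181 both Seb1-HTP libraries were above both controls. The 4 positions are adjacent and share deletions of several bases, so they are not separate observations. Other positions among the 181 had few deletions. At 453041 there were 8.81% and 4.85% in the controls against 0% and 1.49% with Seb1-HTP, and at 452987 0% and 0.377% against 4.78% and 4.29%. Positions thinly covered in a control are not among the 181 and can hold more Seb1-HTP deletions. At 452729, for example, deletions were in 15.7% of 2492 and 3.37% of 2728 Seb1-HTP reads, against 0% of 5 and 531 control reads. Beside the cluster, 453007 was substituted in 77.7% and 61.4% of control reads against 51.98% and 52.9% of Seb1-HTP reads.

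Both the reads over the cluster and the share of them with a deletion differed. Reads spanning it were 62.7% and 61.0% of the stretch in the controls against 16.03% and 29.7% with Seb1-HTP. Of spanning reads, 87.7% (86.2 to 89.1) and 76.6% (76.0 to 77.1) in the controls and 53.8% (51.6 to 56.0) and 56.0% (54.6 to 57.5) with Seb1-HTP had a deletion inside it. The means were 82.1% ± 7.89 and 54.9% ± 1.58 (SD, n = 2). The cluster was picked for its deletion share of 10% or more in both controls, so these values are given without a test. A deletion of 3 of the bases was the commonest form, in 64.2% and 53.4% of spanning control reads against 37.4% and 38.8% of spanning Seb1-HTP reads. A deletion of 2 was in 22.0% and 21.4% against 15.8% and 16.4%.

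Seb1-HTP reads at the cluster often carried a substitution in place of a deletion. At 453010 a substitution was found in 13.9% and 14.1% of covering control reads and in 34.6% and 23.1% of covering Seb1-HTP reads. Any difference within the cluster was found in 98.9% and 89.0% of spanning control reads and in 88.9% and 75.3% of spanning Seb1-HTP reads, so the lower control and the higher Seb1-HTP library were nearly level by this measure. In the interval 452969 to 453034, 71.1% of the 605 reads of Seb1-HTP 1 had a substitution at 453010, against 9.20%, 12.4% and 5.28% in control 1, control 2 and Seb1-HTP 2.

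**Figure D3:**
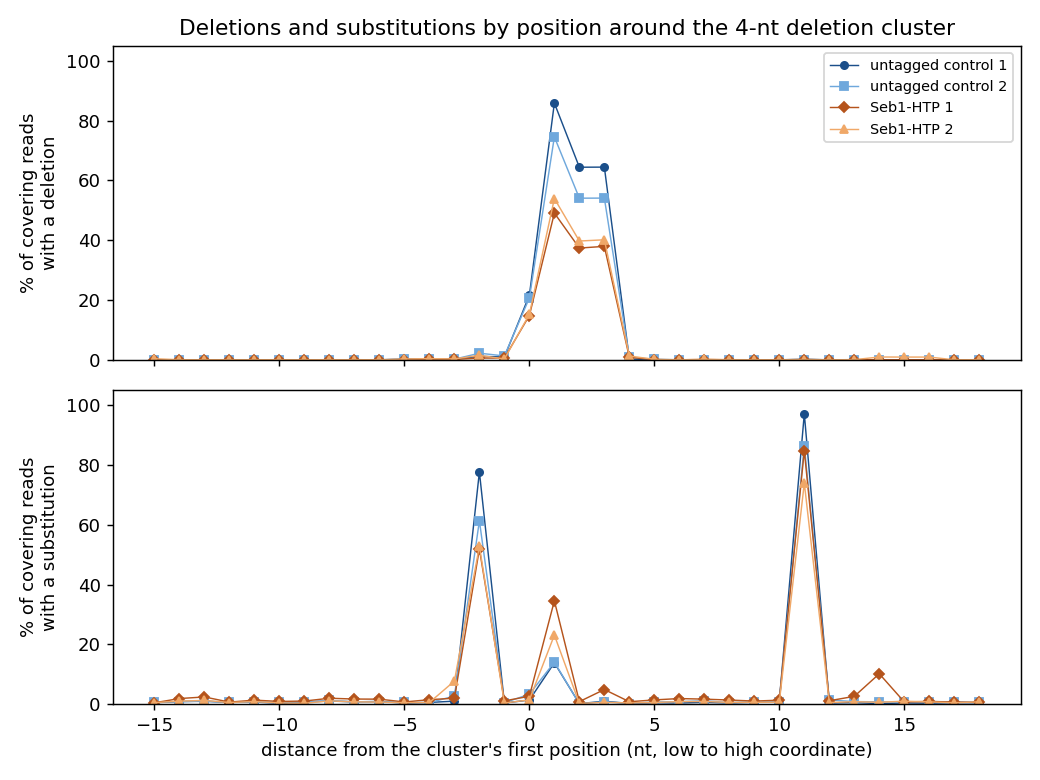
Percent of covering reads with a deletion (upper panel) or a substitution (lower panel) at each position, against the distance in nt from the first of the 4 cluster positions, with 1 line and marker per library. Deletions rise above 10% at the 4 positions alone, with both controls above both Seb1-HTP libraries, and at the second of them substitutions are in 34.6% and 23.1% of Seb1-HTP reads against 13.9% and 14.1% of control reads.

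The size of this difference depended on which reads were set side by side. Each fragment counted once, copies together, the cluster was deleted in 82.4% and 71.2% in the controls against 63.4% and 56.7% with Seb1-HTP. Among spanning reads under 70 nt it was 87.0% and 88.0% against 65.1% and 83.1%, and among longer ones 93.2% and 70.3% against 29.6% and 46.7%. Both controls were above both Seb1-HTP libraries in each of these 3 counts. Within a single interval the libraries need not differ this way. In the interval 452969 to 453021 the cluster was deleted in 100% of 270 and 99.8% of 922 control reads and in each of the 35 and 17 Seb1-HTP reads. In the interval 452969 to 453034 it was deleted in 93.6% of 250, 88.5% of 739 and 99.3% of 303 reads of control 1, control 2 and Seb1-HTP 2, but in 29.3% of 605 reads of Seb1-HTP 1. In the interval 452950 to 453034 it was deleted in 93.9% of 2818 reads of control 2 and 95.9% of 754 reads of Seb1-HTP 2. For these 3 intervals Seb1-HTP 2 was not below the controls.

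Reads of the stretch that did not span the cluster ran the other way. Deletions were in 1.70% and 3.38% of them in the controls and in 17.1% and 11.7% with Seb1-HTP (2.54% ± 1.19 against 14.4% ± 3.82, SD, n = 2, also without a test). Much of the Seb1-HTP excess lay in windows where controls had few reads. In the window at 452900, 3.23% of 31 and 0% of 24 control reads, and 21.5% of 741 and 23.6% of 1204 Seb1-HTP reads, carried one. In the window of the first pile-up the shares were 1.42% and 1.85% in the controls against 9.41% and 4.27% with Seb1-HTP.

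**Figure D4:**
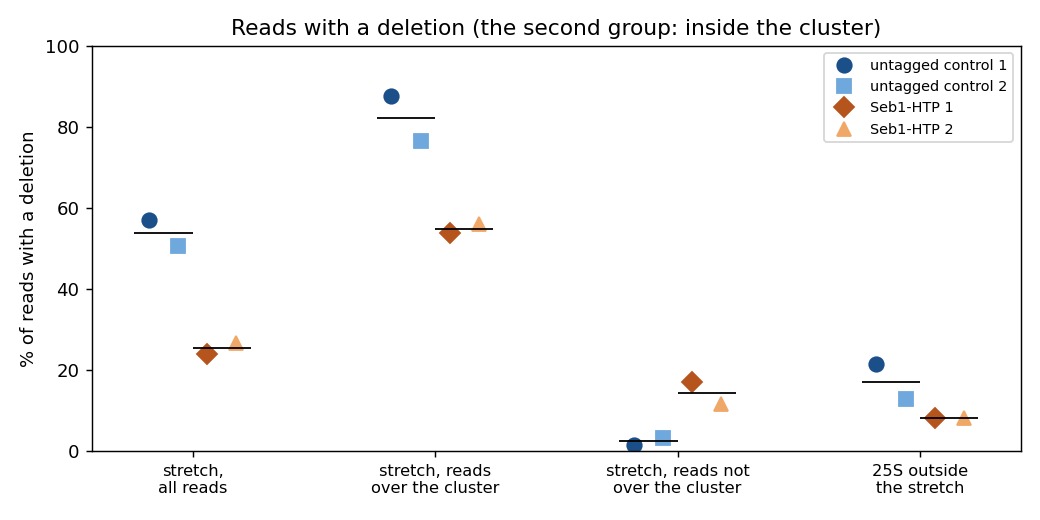
Percent of reads with a deletion (y axis) in 4 sets of reads, with 1 marker per library and a bar at each group's mean. For all reads of the stretch, the reads over the cluster and 25S outside the stretch both controls are above both Seb1-HTP libraries, and for reads of the stretch away from the cluster both are below. In distinct fragments, not drawn, the group means for 25S outside the stretch were nearly level.

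The deletion frequency was then tested across the 35S rDNA. Of its 50-nt windows, 13 had at least 20 reads in each library, 5 of them in the stretch, and the test compared reads with and without a deletion, with a term for each library. No window was called in either direction at an adjusted p under 0.05, in the stretch or elsewhere (0% of the 13 windows, edgeR quasi-likelihood test with Benjamini-Hochberg adjustment). An unadjusted p under 0.05 was met by 3 windows, and DESeq2 called 2 windows higher with Seb1-HTP, both outside the stretch. The log2 change of the odds from controls to Seb1-HTP was -1.92 (SE 1.43, edgeR adjusted p = 0.354) in the window at 452950 and -1.92 (SE 1.39, adjusted p = 0.354) in the window at 453000. In the window at 452900 it was 3.81 (SE 1.84, adjusted p = 0.210) and in that of the first pile-up 2.04 (SE 1.396, adjusted p = 0.354). In the window at 452650 it was 1.73 (SE 2.11, adjusted p = 0.546). The estimates thus pointed down in the windows of the second pile-up and up in the other 3 windows of the stretch, none past the threshold. Single libraries moved these values: at 452950 the change was -0.619 without Seb1-HTP 1 and -3.25 without Seb1-HTP 2, and at 453000 it was -0.972 without control 1. At 452900 it was 7.30 without control 1.

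Substitutions were near saturation in the controls. They were in 99.1% and 97.6% of the stretch's control reads and in 96.3% and 89.9% of its Seb1-HTP reads (98.3% ± 1.06 against 93.1% ± 4.58, exact permutation p = 0.333). Outside the stretch they were in 92.9% and 90.1%, and in 94.6% and 92.9%, of 25S reads. The stretch exceeded other 25S by 6.20 and 7.46 percentage points in the controls and by 1.71 points in Seb1-HTP 1, whereas it was 3.03 points lower in Seb1-HTP 2 (difference -3.03; exact permutation p = 0.333).

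By window, none of the 13 was called (0% in either direction, edgeR), and 1 had an unadjusted p under 0.05. That was the window of the first pile-up, with a substitution in 99.8% and 99.3% of control reads and in 90.9% and 81.7% of Seb1-HTP reads (log2 change of the odds -5.10, SE 1.30, edgeR adjusted p = 0.123). The call was made with DESeq2, in distinct fragments, with at least 50 reads in each library, in each rDNA copy alone and with the replicate block (adjusted p from 0.000583 to 0.0456). The copies share the same reads evenly, so their calls do not count as separate support. Across the alternatives run it was not called with any library left out, with looser read filters, or with the ends of intervals left out.

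Within the first pile-up, the share at a single position could differ between fragments. At 452548 a substitution was found in 76.7% and 80.4% of covering control reads and in 25.6% and 43.2% of covering Seb1-HTP reads. Within the interval 452540 to 452589 the shares were 82.2% and 81.6%, and 92.5% and 79.97%, so the groups overlapped there. Within the interval 452506 to 452586, seen with Seb1-HTP alone, they were 1.32% of 2648 reads and 57.9% of 107 reads. The same position thus read differently in different fragments of 1 library.

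Substitutions also gathered at the ends of intervals. The base at the low-coordinate end, the RNA's 3′ side, was substituted in 51.5% and 61.8% of the stretch's control reads against 48.1% and 50.3% of its Seb1-HTP reads. The base at the other end was substituted in 10.7% and 9.17%, and 7.57% and 5.79%. Per the labels' protocols the 3′ adapter opens with a random base, and its part in the 3′ substitutions was not tested. With both end bases left out, 98.3% and 95.2% of control reads against 95.3% and 87.2% of Seb1-HTP reads still carried a substitution.

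The size of the pile-ups bears on the make-up of the rest of the 35S rDNA, since shares of one total compete. With the stretch's reads included, 25S made up 91.7% ± 2.76 of 35S rDNA reads in the controls against 49.5% ± 1.59 with Seb1-HTP. Without them, 25S made up 55.97% and 46.8% in the controls against 45.3% and 46.0% with Seb1-HTP, and the ratio of means went from 1.85 to 1.13. The 5.8S rRNA, which pairs with 25S in the large subunit, stood at 5.16% ± 0.860 and 28.3% ± 1.70 with the stretch included. Without the stretch it stood at 24.8% and 38.3% in the controls against 31.3% and 29.7% with Seb1-HTP, so the groups overlapped (31.6% ± 9.53 against 30.5% ± 1.15, exact permutation p = 1). The 5.48-fold higher mean 5.8S share of the Seb1-HTP libraries was thus not found outside the stretch, where the ratio was 0.965.

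The 18S rRNA of the small subunit kept its direction. Without the stretch it stood at 19.2% and 14.8% in the controls against 23.4% and 24.3% with Seb1-HTP (17.0% ± 3.07 against 23.8% ± 0.622, SD, n = 2; exact permutation p = 0.333). The ratio of means was 1.402, against 7.12 with the stretch included. In distinct fragments the difference was 17.8 percentage points, against 6.83 in reads. The difference in 25S outside the stretch, -5.72 points, came to -1.13 without control 1 and to -14.2 in distinct fragments. Other rDNA features were scarce, with RDN5, the 5S rRNA, named by 3 and 26 control reads and by 14 and 485 Seb1-HTP reads.

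**Figure D5:**
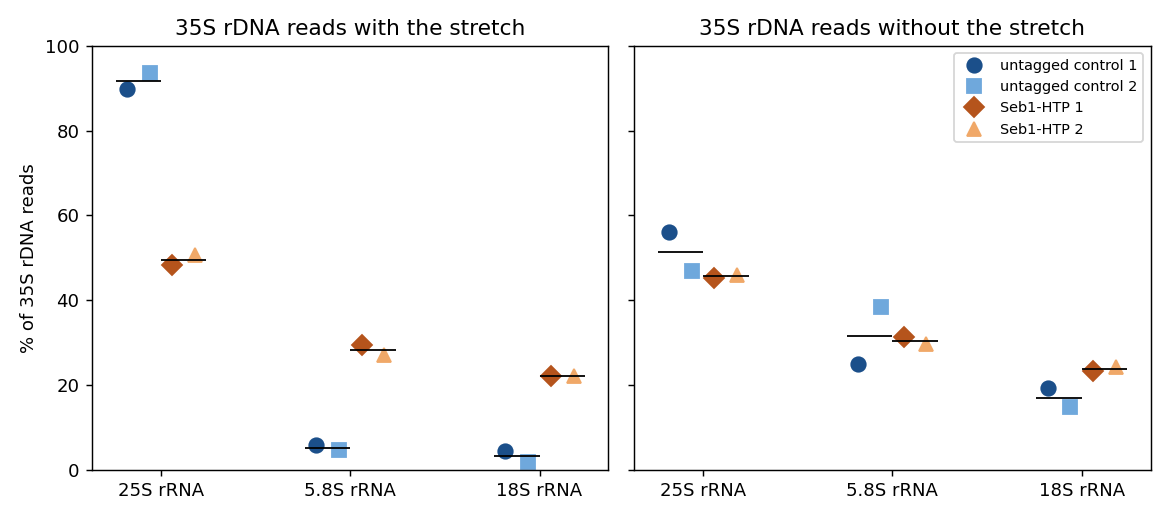
Share of 35S rDNA reads (y axis, percent) taken by 25S, 5.8S and 18S rRNA, with the stretch's reads (left) and without them (right), with 1 marker per library and a bar at each group's mean. The wide gaps between groups on the left shrink on the right, where the 5.8S values of the controls, 24.8% and 38.3%, lie on either side of the Seb1-HTP values.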

How the data were processed

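The authors deposited 1 table per library, written by Counters 1.4.2 per the file headers, with raw read counts per mapped interval. The submitters' processing notes list Novoalign 2.0.4 and, as build, ASM294v2 of S. pombe, whereas the records carry S. cerevisiae chromosomes and genes. A step that collapses repeats is not stated. In each library the counts summed to single reads plus 1 per read pair of the header. Depth is given with the results.

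Member records, the rDNA lists and the tests were chosen with earlier results of these data known. Records were read with Python 3.11.15 and pandas 2.3.3. A read counted as carrying a deletion or substitution if its record listed at least 1. Two-sided exact permutation tests over libraries compared group means. Window tests used edgeR 4.0.16 (R 4.3.3) on reads with and without the difference. In simulated data with a 16-fold change of the odds, the window test recovered 82.5% of changed windows for deletions and 76.5% for substitutions. It called 1% and 1.5% of unchanged windows. Smaller changes were not simulated, and the simulated spread between libraries was set rather than taken from these data. The recovery rates therefore need not hold here. Log2 changes larger than 16-fold were not called for deletions at 454250 (4.61) and 456400 (7.30), each with an edgeR adjusted p of 0.0575. Nor were they for substitutions at 452550 (-5.10, edgeR adjusted p = 0.123) and 457200 (-4.45, edgeR adjusted p = 0.450). Named intervals are the 5 with the highest mean share of the stretch's reads per group, and named positions the 5 with the highest mean deletion or substitution share per group among those with at least 100 covering reads per library. The read ends, the pile-ups, the deletion cluster and the split at 70 nt were chosen after their values were seen.

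Alternatives were distinct fragments, records of 25 nt or more, records wholly inside the stretch, each rDNA copy alone, other totals, 250-nt windows, other read filters, DESeq2 1.42.0, a replicate block, and leaving out each library in turn. Leaving out interval ends was added after seeing the data.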

Additional observations from a re-analysis of the deposited data

Results flagged for a closer look

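Seb1-HTP 2 held 21 reads on the plus strand of the stretch, opposite to the rRNA, each a record of its own of 24 to 74 nt that named RDN25, while both controls and Seb1-HTP 1 held 0. This was marked because these reads lie outside the records compared above. Seb1-HTP 2 had 231656 named reads against 4579 and 45339 in the controls, so these counts do not show a higher rate than in the controls.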

How the results depend on the processing

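Of 12 values per library, 8 kept their direction in each alternative run. These were both shares of the stretch, both deletion measures, both substitution measures and the 25S and 18S shares outside the stretch. The direction of both shares of the stretch followed from its choice. The replicate block leaves a difference between groups as it is, and each rDNA copy alone takes an even part of the same reads. Neither setting is therefore a separate check of direction. In distinct fragments the difference in the stretch's share of named reads was -41.8 percentage points, against -70.6 in reads, and of 25S reads -53.4, against -75.5. With a library left out these ran from -78.1 to -63.2 and from -79.7 to -71.2. The 5.8S difference outside the stretch, -1.11 points, ran from -7.85 to 5.63 with a library left out and was 0.287 in the first rDNA copy. Mean length (3.50 nt higher with Seb1-HTP) ran from -3.10 to 10.1 nt, and was -1.35 nt in distinct fragments. Reads per fragment ran from -9.03 to 3.86, and the first copy's percent from -0.444 to 0.339.

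Deletion windows called were 1 lower and 1 higher in distinct fragments (6 windows tested; the lower one, at 452950, had a log2 change of -1.56, adjusted p = 0.0253, edgeR) and 2 higher with DESeq2. Substitution windows called lower were 2 with the replicate block, and 1 each in distinct fragments, with at least 50 reads per library, in the first and second rDNA copy alone and with DESeq2. With a library left out 0 were called in every case, with 0 to 9 windows at an unadjusted p under 0.05 by edgeR.

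Over the alternatives for 10 values of single windows, 98 kept direction and side of the threshold, 7 became called and 10 changed sign, none of these 10 past the threshold. With a library left out, the log2 change for deletions ran from 1.42 to 2.64 at 452550, from -3.88 to 7.09 at 452650, from 3.11 to 7.30 at 452900, from -3.25 to -0.619 at 452950 and from -2.87 to -0.972 at 453000. For substitutions it ran from -4.91 to 3.78 at 452650, where it was also -1.83 in the second copy and -0.244 without interval ends. It ran from -0.213 to 1.15 at 452900, from -2.12 to 0.248 at 452950 and from -2.26 to 1.08 at 453000. The cause was not tested.

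Samples of the groups share only a replicate number. The replicate differences of the groups correlated at 0.327 over 9 windows of 25S and at 0.450 over the 5 of them in the stretch. In the permutation test with the replicate block, the deletion difference of -28.5 points could reach a p of 0.5 at best. Control 1, with 4579 named reads, limits the windows that could be tested.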
